A study of Mus musculus with 7 samples.

Results

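Resident macrophages of the mouse colon that lack the IL-10 receptor chain Il10ra were compared with resident macrophages that carry it. The comparison used 5 of the 7 arrays of the series, chosen by genotype and sort label. They were the 2 arrays of CX3CR1cre:IL10Raflox/flox mice (Il10ra_mKO arrays 1 and 2) and the 3 arrays of CX3CR1gfp/+ mice (resident WT arrays 1, 2 and 3). All mice had a C57BL/6 background and were 6 weeks old, and the cells came from the lamina propria of the colon by flow sorting, under the label resident. In Il10ra_mKO mice Cre recombinase is made from Cx3cr1, which directs the deletion to cells that use this gene. Resident WT mice carried GFP in 1 Cx3cr1 allele and had no floxed Il10ra or Cre by their labels. No array held Cre without the deletion, so the effect of the Cre allele and that of losing Il10ra cannot be told apart. The 2 remaining arrays of the series, from CX3CR1hi cells, were set beside the resident ones only where stated. Whether each array stands for a separate mouse is not stated in the labels, so the p-values measure the spread between these arrays, which may be technical.

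IL-10 holds back the inflammatory response of macrophages. It binds a receptor of Il10ra, the ligand-binding chain, and Il10rb, a chain shared with other cytokines, and signals through JAK1, TYK2 and the transcription factor STAT3. The gut holds large numbers of resident macrophages that live beside commensal bacteria, and loss of the IL-10 receptor in such cells is known for leading to colitis in mice. Interferon-gamma, the main opposing signal in macrophages, raises guanylate-binding proteins and the MHC class I pathway.

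Expression was compared for 19938 genes, each represented by its brightest probe set with a single gene symbol. Values are log2 RMA expression, so a difference of 1 is a 2-fold difference, and they do not compare levels between genes. All differences are Il10ra_mKO minus resident WT. The median difference over all 19938 genes was 0.00 in each mutant array. Among the resident WT arrays 46 to 162 genes differed by 2-fold or more in a pair, against 429 between the mutant arrays and 425 to 1122 between a mutant and a control array. In the resident arrays 12037 genes, 60.4% of those measured, had an identical value in 2 or more arrays, and 844 had 1 value in all 5. The share was 85.9% among genes with a mean below 5 and 20.7% among genes with a mean of 10 or more. The CX3CR1hi arrays shared such a value with a resident array for at most 1 gene per pair, so levels are compared only among the 5 resident arrays.

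Il10ra itself was read at 10.56, 10.76 and 11.12 in resident WT arrays 1, 2 and 3, and at 8.05 and 7.04 in Il10ra_mKO arrays 1 and 2. Both mutant arrays lay below every control array, array 2 further than array 1. The difference was -3.27 ± 0.38 (SE), 9.63-fold lower, with an adjusted p of 0.243 in limma with Benjamini-Hochberg adjustment. The exons read by this probe set were not examined here, and a probe outside the deleted part does not check the deletion. Cx3cr1, the receptor gene that carries the GFP or Cre allele, stood at 10.70, 10.74 and 10.85 in WT against 10.11 and 10.44 in the mutant arrays. The groups did not overlap, with a difference of -0.49 ± 0.13 (SE). Both groups carry a changed Cx3cr1 allele, so this difference and the alleles cannot be told apart.

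The sort was read from 16 measured macrophage markers, whose mean level was 11.50 to 11.65 in WT and 11.66 and 11.84 in the mutant arrays. Csf1r, the receptor that macrophages need to survive, and Adgre1, which encodes F4/80, differed from the control mean by at most 0.13 and 0.29 in either mutant array. Of the 16 markers 5 lay above every WT array in both mutant arrays and 2 below, beside 8.92% and 8.5% of all genes. Fcgr1 was higher by 0.56 and 0.66 in mutant arrays 1 and 2 and Aif1 by 0.47 and 0.82, while Cx3cr1 was lower. All 22 measured colon epithelial markers were among the brighter genes (over 5.86, the median of all values, in 2 or more of the 5 arrays). Their mean level was 9.72, 10.13 and 9.80 in WT, 10.32 in mutant array 1 and 8.54 in mutant array 2. Epithelial markers thus differed between the mutant arrays. Of the 22, 18 were at least 2-fold higher in array 1 than in array 2, as were 368 of all 19938 genes. Without the antimicrobial lectins Reg3b and Reg3g, the other 20 had a median difference from the control mean of -0.22 in array 1 and -1.67 in array 2. Fibroblast and muscle markers were lower in both mutant arrays, with a mean of 6.74 to 7.13 in WT and 6.36 and 6.31 in the mutant arrays. Markers of T and NK cells were mostly dim: 9 of 14 T cell markers and 10 of 13 NK cell and ILC markers were below 5.86 in all 5 arrays. Of the T cell markers 2 lay above every WT array in both mutant arrays and 1 below. Of the NK cell and ILC markers 5 lay above and 0 below, beside 8.92% and 8.5% of all genes. Klrk1, of the NK cell list, was at 5.348, 5.355 and 5.970 in WT against 6.957 and 7.345 in the mutant arrays. B and plasma cell markers had a mean of 7.15 to 7.32 in WT, 7.43 in mutant array 1 and 7.91 in mutant array 2. In these bulk samples fewer cells of a type and less RNA per cell cannot be told apart.

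**Figure D1:**
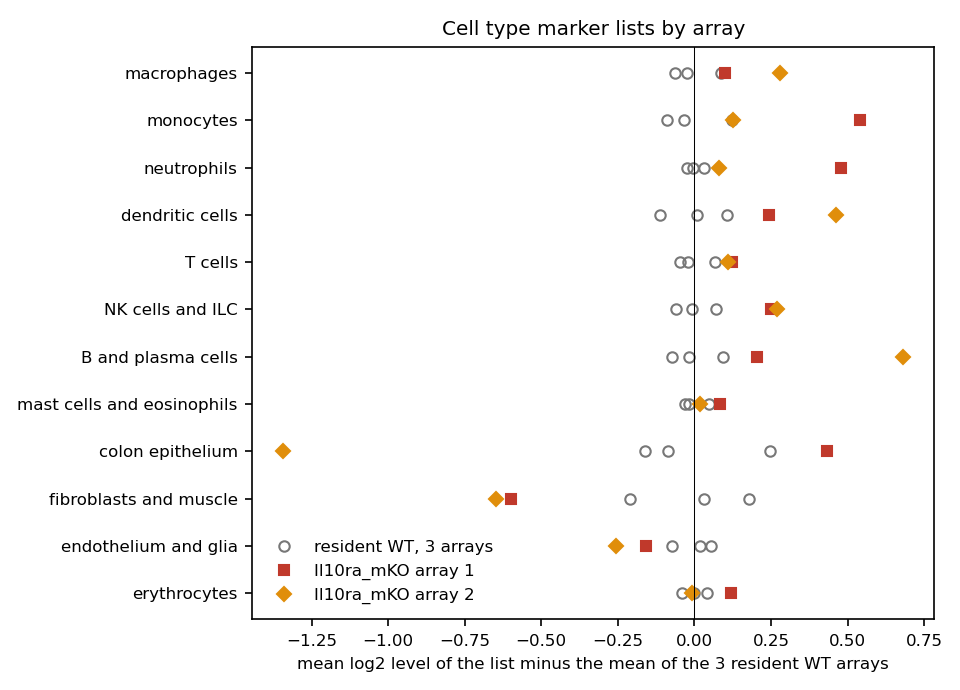
Mean log2 level of each cell type marker list in each of the 5 resident arrays, minus the mean of the 3 resident WT arrays; open circles are WT arrays, the square is Il10ra_mKO array 1 and the diamond array 2. The epithelial list separates the mutant arrays (mean level 10.32 in array 1 and 8.54 in array 2), and the fibroblast list lies below all controls in both.

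Across all genes 1 passed an adjusted p under 0.05, 0 higher and 1 lower (0% and 0.00502% of the 19938 tested). At an unadjusted p under 0.05 limma gave 810 higher (4.06%) and 770 lower (3.86%). The gene that passed was Fcrls, which encodes an Fc receptor-like scavenger protein of tissue macrophages. Fcrls fell from 10.86, 10.91 and 10.73 in WT to 6.49 and 6.59 in the mutant arrays. The mutant arrays were alike and lay far below all 3 controls. The difference was -4.29 ± 0.08 (SE), 19.6-fold lower, with an adjusted p of 0.0194 (limma, Benjamini-Hochberg). The call was lost when any 1 WT array was left out, with adjusted p of 0.399, 0.553 and 0.269 without WT arrays 1, 2 and 3, and stood at 0.0358 and 0.0415 without mutant arrays 1 and 2. With runs of neighbouring label numbers as a block its adjusted p was 0.211.

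The count was larger under other settings. A fit restricted to the 7901 genes with 5 distinct values in the resident arrays, an alternative chosen after seeing the data, gave 108 higher and 101 lower genes by the same limma test. The restriction also favours genes that differ between arrays. Normalizing again by quantiles gave 58 and 56, and centring each array on its median gave 81 and 65. These 3 fits shared 101 calls, 52 higher and 49 lower, among them Fcrls.

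Because the main test passed 1 gene, the arrays themselves were compared. A gene is called apart when its lower mutant array lies above the highest of the 3 WT arrays, or the reverse. By this rule 1779 genes were higher (8.92%) and 1694 lower (8.5%). Each count of genes apart in a list below is to be read beside these shares. The lists were chosen with earlier results of these data known, so a count above these shares is a description and no test. With the nearest arrays at least 2-fold apart, 75 genes were higher (0.376%) and 73 lower (0.366%). Of the 75, 66 passed in the fit without tied values, and of the 73, 65 did. That fit passed 209 genes in all. Both sets were chosen by their gap in the same arrays that the fit tests. Their counts are therefore a description and no separate test. Genes named from here on other than Fcrls did not pass the main test, and their values are given as differences.

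Ly6i, a lymphocyte antigen 6 family protein of activated myeloid cells, had the widest gap among higher genes. Its values were 6.17, 5.77 and 5.91 in WT and 11.07 and 10.33 in the mutant arrays. The nearest mutant and control arrays were 17.9-fold apart, and the difference was 4.75 ± 0.28 (SE), with an adjusted p of 0.123. Acod1, the enzyme that makes itaconate in activated macrophages, stood at 6.67, 5.70 and 5.82 in WT against 11.10 and 10.33 in the mutant arrays. Both mutant arrays were at least 12.7-fold above every control. Nos2, the inducible nitric oxide synthase, went from 5.03, 5.13 and 5.08 in WT, all among the dim values, to 9.86 and 8.03. It was higher in both mutant arrays and more so in array 1.

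Saa3, an acute-phase serum amyloid made by macrophages and other cells, was at 5.68, 5.50 and 5.19 in WT and 10.62 and 8.38 in the mutant arrays. Lrg1, a leucine-rich acute-phase glycoprotein, was at 5.08, 5.05 and 5.10 against 9.42 and 7.35. Both were higher in array 1 than in array 2 by more than 2 log2 units, while all WT arrays were dim. Cd300lf, an immunoreceptor of myeloid cells with inhibitory motifs, showed the opposite order of the mutant arrays, with 5.24, 5.15 and 5.31 in WT against 8.002 and 8.534. Clec9a, a lectin receptor for dead cells best known from cross-presenting dendritic cells, was at 6.34, 5.65 and 6.15 in WT against 8.58 and 9.32 in the mutants. Cst7, cystatin F, an inhibitor of lysosomal proteases, was at 5.60, 5.21 and 5.23 against 8.23 and 7.68. No control array reached a mutant array for any of these genes, as their choice by the gap requires. The 15 measured dendritic cell markers include Clec9a. Their mean was 7.14 to 7.36 in WT, 7.50 in mutant array 1 and 7.72 in array 2. Of these markers 7 were apart and higher and 3 apart and lower, beside 8.92% and 8.5% of all genes. Siglech, another marker of this list, was apart and lower by at least 2-fold, with a difference of -1.61 ± 0.15 (SE). The part of dendritic cells in these values was not tested.

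The 15 higher genes with the widest gaps included F10, Procr and Cfb. F10, coagulation factor X, was at 5.85, 5.65 and 6.17 in WT against 9.18 and 8.84 in the mutant arrays. Procr, the endothelial protein C receptor, was at 6.29, 5.84 and 6.18 against 9.48 and 8.95. Cfb, complement factor B of the alternative pathway, was at 7.81, 8.09 and 8.17 against 10.75 and 10.55. These differences were 3.12 ± 0.21, 3.11 ± 0.24 and 2.63 ± 0.15 (SE), alike in both mutant arrays. F13a1, the A subunit of factor XIII, which crosslinks fibrin, went the other way, from 10.99, 10.77 and 9.89 to 7.57 and 7.41. F10 and F13a1 are also in the monocyte marker list, whose 14 measured genes had a mean of 8.08 to 8.29 in WT, 8.71 in mutant array 1 and 8.29 in array 2. Of 23 measured complement and coagulation genes 8 were apart and higher and 4 apart and lower, beside 8.92% and 8.5% of all genes. Ccl5, a chemokine that draws T cells, was at 9.56, 9.08 and 9.62 in WT against 12.66 and 12.09 in the mutant arrays.

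Reg3g and Reg3b, antimicrobial lectins of the epithelium, were far higher in mutant array 1 than in array 2. Reg3g was at 7.47, 7.21 and 6.30 in WT and 13.22 and 9.84 in the mutants, and Reg3b at 7.96, 6.57 and 6.21 against 13.27 and 9.94. Clca4b, a member of the chloride channel accessory family, was at 5.28, 5.40 and 5.32 against 11.44 and 9.43. Both mutant arrays lay above all controls for these genes, as their choice by the gap requires. The mean of the 22 epithelial markers was 10.32 in array 1 and 8.54 in array 2, and its part in these values was not tested.

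Cyp2c55, a cytochrome P450 of the colon, had the widest gap of the lower genes and was at 9.99, 10.73 and 10.02 in WT against 5.61 and 4.78 in the mutant arrays, at least 20.7-fold apart. No other gene named here had a wider gap in either direction. Sycn, syncollin, a secretory granule protein, was at 11.94, 12.19 and 11.59 against 7.87 and 7.57. Nxpe2 was at 9.57, 9.77 and 10.13 against 6.07 and 6.13. Hao2, a peroxisomal hydroxyacid oxidase, was at 9.67, 10.41 and 9.88 against 6.66 and 5.29. The mutant values of these genes lay near or below 7.87, far from the controls. Mptx1, a mucosal pentraxin, was at 10.02, 11.13 and 11.50 against 7.00 and 6.21. Reg4 was at 9.85, 10.91 and 10.18 against 7.08 and 7.18, and Wfdc2 at 8.69, 9.16 and 8.38 against 5.92 and 6.04. All lay below every control in both mutant arrays, as their choice by the gap requires. Of the 22 epithelial markers 10 were apart and lower (8.5% of all genes were), 0 by 2-fold. Clca1, the marker with the widest lower gap, was at 9.52, 11.37 and 12.06 in WT against 8.84 and 6.83. It differed by -2.14 in array 1 and -4.15 in array 2. Epcam, an epithelial adhesion protein, differed by -0.32 in array 1 and -1.73 in array 2, and Krt8, a keratin, by -0.05 and -1.43. The part of epithelial RNA in the lower values was not tested. Acsm3, Sult1c2, Itih5 and Thbs4 differed by -2.82 ± 0.29, -2.22 ± 0.11, -2.28 ± 0.19 and -2.23 ± 0.29 (SE).

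**Figure D2:**
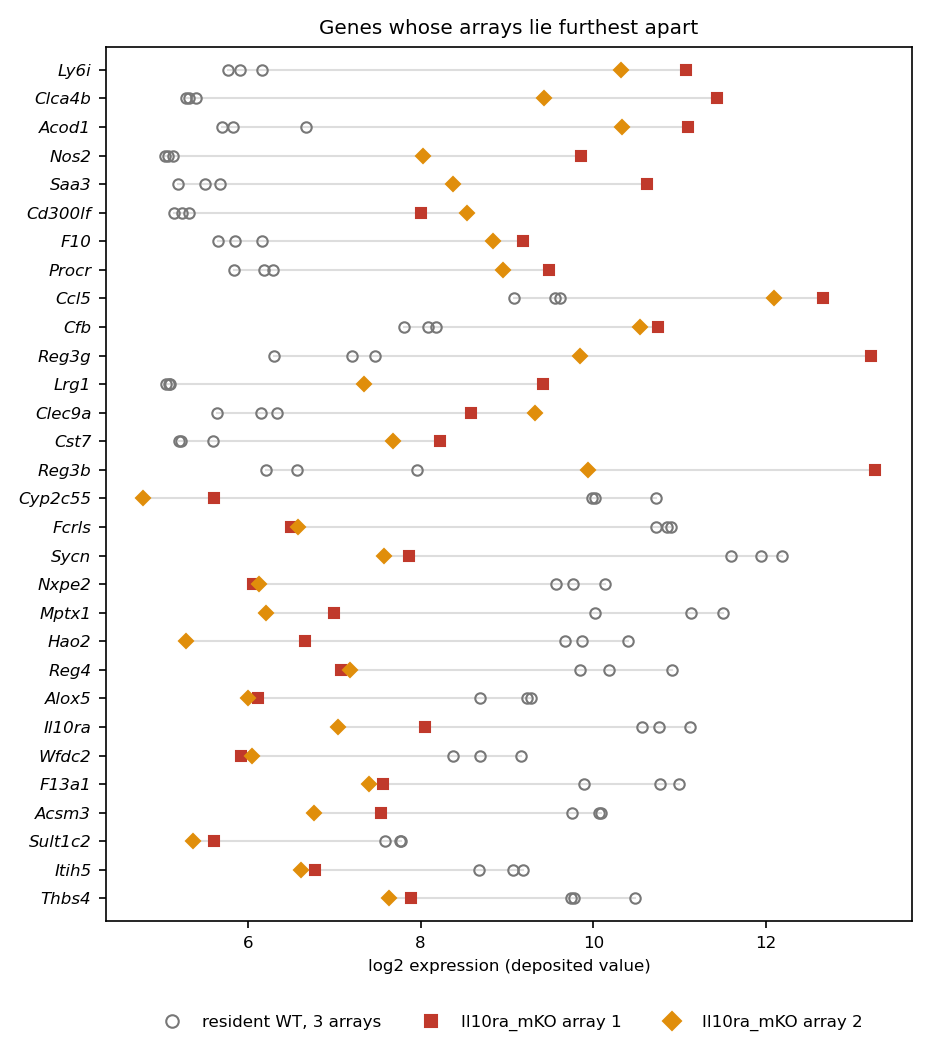
Deposited log2 expression of the 15 genes higher and the 15 lower in Il10ra_mKO with the widest gap between the nearest mutant and control arrays, 1 row a gene; open circles are the 3 resident WT arrays, squares mutant array 1 and diamonds mutant array 2. In each row the groups are apart, as the choice of rows requires; Fcrls, Nxpe2 and Reg4 have mutant arrays that nearly coincide, while Reg3b, Reg3g and Lrg1 have mutant arrays over 2 log2 units apart.

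Promoter sequences were read for the higher genes. RefSeq promoter windows (GRCm38.p6), 250 bases before to 50 after a gene start, covered 15614 of the 19938 genes with 19177 windows. The core of the interferon-stimulated response element was searched as GAAANNGAA and the gamma-activated site as TTCNNNGAA, both on either strand, beside the NF-kB motif by its consensus. Windows covered 53 of the 75 higher genes with a 2-fold gap and 61 of the 73 lower genes. The interferon element core was present in 16 of the 62 windows of these higher genes, 25.8%. It was in 5.13% of the windows of these lower genes and in 7.84% of all windows. The gamma-activated site was in 11.3%, 6.41% and 7.66%, and the NF-kB motif in 12.9%, 3.85% and 9.55%. By list the interferon element core was in 4 of 5 windows of the GTPases (80%). It was in 47.1% of the windows of type I interferon-stimulated genes and 25% of those of the MHC class I list. In the list of resident gut macrophage identity genes it was in 4 of 20 windows (20%). Windows covered only 4 of the 8 measured GTPases, 15 of 21 type I genes, 11 of 14 MHC class I genes and 15 of 22 identity genes. Of the 8 GTPases 5 are also among the 75 higher genes, so these shares are not separate observations. A match is a description of letters in a window and shows no binding. The promoters of Saa3 (chr7:46715627-46715926, minus strand), Cd300lf (chr11:115133943-115134242, minus strand), Clec9a (chr6:129408612-129408911, plus strand) and Gbp5 (chr3:142496684-142496983, plus strand), all GRCm38.p6, are shown because each is among the higher genes named and holds the core. Capitals mark the matches, which in Gbp5 are 2 gamma-activated sites, 1 interferon element core and 1 NF-kB motif and in the others the core alone. No matches overlap in these windows.
Saa3: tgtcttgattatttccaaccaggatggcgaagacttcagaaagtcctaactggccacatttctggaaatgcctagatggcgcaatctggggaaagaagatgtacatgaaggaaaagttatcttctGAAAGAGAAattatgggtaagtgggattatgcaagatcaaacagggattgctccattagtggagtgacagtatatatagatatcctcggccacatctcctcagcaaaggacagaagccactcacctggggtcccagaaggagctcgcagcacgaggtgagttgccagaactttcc
Cd300lf: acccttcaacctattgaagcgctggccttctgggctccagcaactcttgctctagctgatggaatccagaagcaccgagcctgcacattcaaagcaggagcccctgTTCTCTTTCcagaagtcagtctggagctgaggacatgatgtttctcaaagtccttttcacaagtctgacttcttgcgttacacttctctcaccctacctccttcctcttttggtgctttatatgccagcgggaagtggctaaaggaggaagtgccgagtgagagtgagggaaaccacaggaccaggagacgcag
Clec9a: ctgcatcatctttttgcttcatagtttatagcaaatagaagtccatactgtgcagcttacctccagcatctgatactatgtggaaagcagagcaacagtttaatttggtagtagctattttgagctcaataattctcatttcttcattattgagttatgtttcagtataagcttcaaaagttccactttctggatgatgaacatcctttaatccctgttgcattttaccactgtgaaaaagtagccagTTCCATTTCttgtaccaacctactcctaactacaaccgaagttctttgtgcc
Gbp5: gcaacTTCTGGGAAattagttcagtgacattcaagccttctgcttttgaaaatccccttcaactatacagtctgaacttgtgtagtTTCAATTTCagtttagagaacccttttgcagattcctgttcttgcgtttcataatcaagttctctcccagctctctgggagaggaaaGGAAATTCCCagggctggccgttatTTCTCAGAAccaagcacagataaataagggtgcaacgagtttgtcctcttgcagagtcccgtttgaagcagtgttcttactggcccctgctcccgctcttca

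The GTPases that interferon-gamma raises, which attack intracellular microbes, were higher in both mutant arrays. All 8 measured members of 15 listed were apart and higher (8.92% of all genes were), 5 of them by 2-fold, with a median difference of 1.66 beside 0.00 over all genes. The median was 1.63 in mutant array 1 and 1.70 in array 2, close to each other. Iigp1 was at 8.39, 7.55 and 8.14 in WT against 10.36 and 10.28 in the mutants. Gbp5 was at 7.78, 7.34 and 8.04 against 10.17 and 9.85, and Gbp4 at 8.15, 8.20 and 8.82 against 10.72 and 10.49. None passed the main test, with adjusted p of 0.257, 0.243 and 0.243 for Iigp1, Gbp5 and Gbp4 (limma, Benjamini-Hochberg). Of 9 measured genes of the interferon-gamma pathway 7 were apart and higher (8.92% of all genes were), with a median of 0.64. Nlrc5, the transactivator of MHC class I genes, had a gap of 1.55 in its brightest row, and all 19 of its rows were higher, by 0.84 to 2.29. Irf1 was at 10.84, 10.42 and 10.27 in WT against 11.79 and 11.37, while its other, dim row differed by only 0.15. Ifng, the cytokine, was dim in all arrays, with a control mean of 5.2 and differences of 0.54 and 0.07.

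MHC class I processing genes were higher with small spread. Of 14 measured 13 were apart and higher (8.92% of all genes were), 3 by 2-fold. The median was 0.73 (0.73 in array 1 and 0.79 in array 2). Tap1, a subunit of the peptide transporter, was at 9.27, 9.18 and 9.47 in WT against 10.79 and 10.77 in the mutant arrays. Psmb9, an immunoproteasome subunit, was at 8.21, 8.42 and 8.60 against 9.67 and 9.65, and H2-Q4, a class Ib molecule, at 9.49, 9.27 and 9.55 against 10.60 and 10.72. B2m, the invariant light chain, was not apart and differed by 0.11 and 0.09. Close relatives in the H2 and GTPase families can share probe signal. In MHC class II and costimulation 6 of 15 were apart and higher (8.92% of all genes were), with a median of 0.32. H2-Aa and Cd74, bright in every array, differed by at most 0.10, while Pdcd1lg2, the inhibitory ligand PD-L2, was at 5.73, 6.11 and 6.70 against 8.56 and 8.20.

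**Figure D3:**
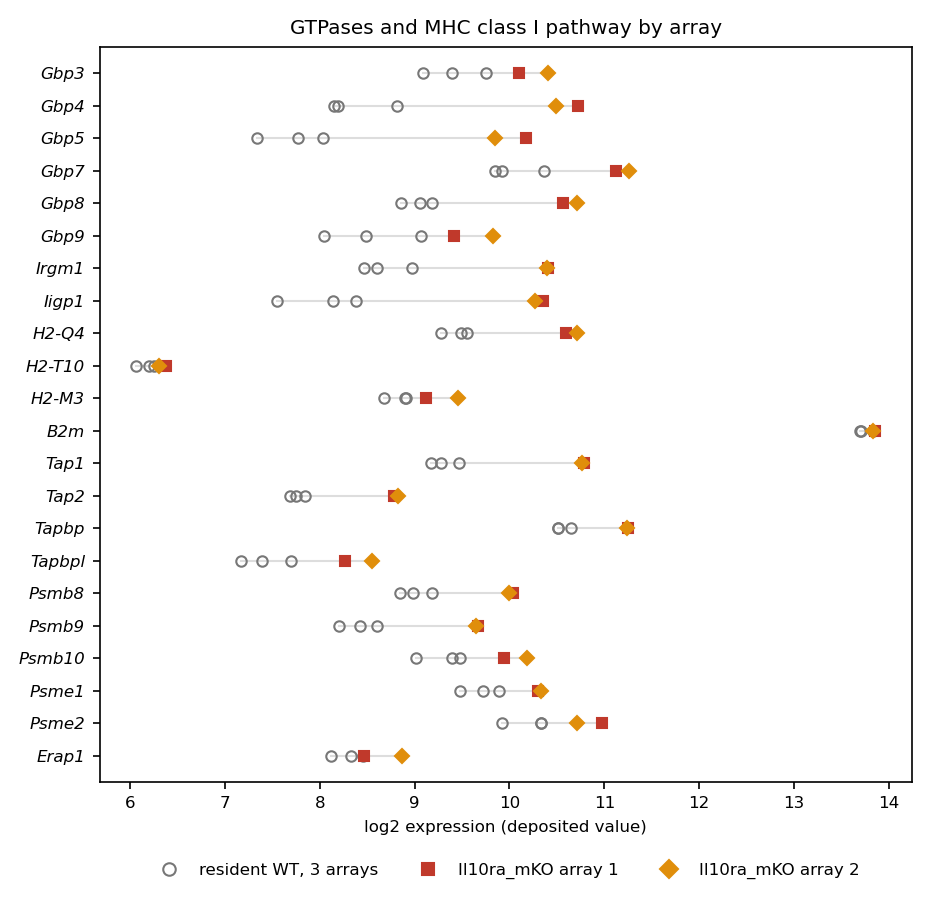
Deposited log2 expression of the 8 measured GBP and IRG GTPases and the 14 measured genes of the MHC class I pathway, 1 row a gene; open circles are the 3 resident WT arrays, squares mutant array 1 and diamonds mutant array 2. The mutant arrays lie to the right of all WT arrays in 21 of the 22 rows, B2m being the exception.

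Of 21 measured type I interferon-stimulated genes 11 were apart and higher, 1 by 2-fold, and 0 lower, beside 8.92% and 8.5% of all genes. The median was 0.59 (0.42 in array 1 and 0.70 in array 2). Zbp1, a sensor of nucleic acids that can start cell death, was at 7.55, 7.69 and 8.17 in WT against 9.78 and 9.58 in the mutants. Rsad2, viperin, was at 7.27, 7.01 and 7.73 against 8.53 and 8.94, and Irf7 at 8.24, 8.10 and 8.53 against 9.21 and 9.55. Ifit1 and Mx1, antiviral effectors, had mutant arrays 0.36 and 0.61, and 0.37 and 1.02, above the control mean but within reach of a control array.

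Among cytokines, those of the IL-12 and IL-23 family stood apart. Il23a, the p19 chain of IL-23, was at 5.749, 5.139 and 5.798 in WT against 7.70 and 7.85 in the mutants. Il12b, the p40 chain, common to IL-12 and IL-23, was at 5.95, 5.68 and 5.60 against 7.53 and 7.81. Both mutant arrays lay above all controls by 1.90 and 1.59 at the nearest, whereas Il12a, the p35 chain of IL-12, differed by 0.17 and 0.04. Il12rb1, a receptor chain for both cytokines, differed by 1.46 ± 0.15 (SE), and Il27 by 0.91 in array 1 and 1.11 in array 2. In all 5 of 8 measured genes were apart and higher (8.92% of all genes were), with a median of 0.62. Il18bp, the soluble inhibitor of IL-18, was at 8.49, 8.35 and 8.41 in WT against 10.35 and 10.50 in the mutants, and Il1a at 10.77, 9.87 and 10.95 against 12.14 and 11.87. Il1b, bright in all arrays, was not apart, with differences of 0.71 and 0.48. Il6 was at 5.37, 4.89 and 4.89 against 7.04 and 5.67, and Inhba, the activin A subunit, at 5.23, 5.29 and 5.27 against 9.49 and 7.22. Both were higher in array 1 than in array 2. Tnf differed by 0.26 and 0.59, and a control array reached the mutant range.

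Of 24 chemokines 6 were apart and higher and 3 apart and lower, beside 8.92% and 8.5% of all genes. Cxcl9, a chemokine that interferon-gamma raises and that draws T cells through CXCR3, was at 10.98, 11.18 and 11.69 in WT against 13.14 and 13.15 in the mutants. Ccl24 was at 7.52, 7.01 and 6.85 against 6.24 and 6.04. Ccl3 and Cxcl2, bright in all arrays, differed by at most 0.45 and were not apart. Ccr7, a receptor for migration to lymph nodes, was at 8.07, 6.64 and 7.60 against 9.57 and 9.92. Of 17 myeloid receptors 10 were apart and higher (8.92% of all genes were). Treml4 was at 6.57, 7.74 and 8.42 against 10.14 and 10.03, and Trem1, a receptor that amplifies inflammation, at 4.87, 5.03 and 5.22 against 7.52 and 6.62. Of 17 C-type lectins 7 were apart and higher (8.92% of all genes were) and 5 apart and lower (8.5%). Clec4e, Mincle, was at 8.68, 6.56 and 8.60 against 11.74 and 10.56, and Cd209a, a lectin of the DC-SIGN family, at 8.63, 8.83 and 9.65 against 6.47 and 7.16.

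Metabolic genes of activated macrophages were higher, mostly more so in array 1. Of 11 measured genes of itaconate, nitric oxide and amino acid metabolism 8 were apart and higher (8.92% of all genes were). Their median was 1.93 in array 1 and 0.76 in array 2. Slc7a11, the cystine transporter, differed by 3.11 and 2.77, and Arg2, a mitochondrial arginase, was at 5.83, 5.53 and 5.72 in WT against 9.18 and 7.68 in the mutants. Ido1, a tryptophan-degrading enzyme, differed by 2.74 in array 1 and 0.43 in array 2, and Arg1 by 1.09 and -0.08. Of 20 glycolysis and hypoxia genes 13 were apart and higher (8.92% of all genes were), with a median of 0.78 (0.90 and 0.48). Slc16a3, the lactate exporter, was at 6.54, 6.89 and 7.07 against 8.81 and 8.32, Hk3, a hexokinase, at 8.26, 8.29 and 8.58 against 9.50 and 9.66, and Slc2a6, a sugar transporter, at 7.20, 6.81 and 6.72 against 8.68 and 8.11. Hif1a, the oxygen-regulated transcription factor, differed by 1.08 and 0.89. Arg1 was not apart, and Ido1 was apart by only 0.36, since array 2 lay near the controls for both. Oxidative phosphorylation genes had a median of -0.22, -0.06 in array 1 and -0.31 in array 2, and 4 of 20 were apart and lower (8.5% of all genes were). The largest of these gaps, of Ndufa1, was 0.06. Cox6c and Sdha had gaps of 0.05 each. Of 15 acute-phase and antimicrobial genes 8 were apart and higher (8.92% of all genes were). Lcn2, which binds bacterial siderophores, was at 5.22, 5.37 and 5.32 against 8.20 and 6.88. S100a8, a protein abundant in neutrophils, was at 5.08, 5.11 and 4.96 in WT against 5.92 and 5.28 in the mutants. Its partner S100a9 was at 5.42, 5.38 and 5.44 against 5.97 and 5.58. The mean of the 15 neutrophil markers was 5.77 to 5.83 in WT, 6.28 in array 1 and 5.88 in array 2. Of these markers 7 were apart and higher and 0 lower, beside 8.92% and 8.5% of all genes. Csf3r, with the widest gap of them, was at 8.977, 8.328 and 8.917 in WT against 9.603 and 10.015 in the mutants. The part of neutrophils in these values was not tested.

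Scavenger and identity genes of resident macrophages were lower in part. Of 21 scavenger and efferocytosis receptors 10 were apart and lower, 3 by 2-fold, and 1 apart and higher. Of all genes 8.5% and 8.92% were. The median of the receptors was -0.43. Folr2, a folate receptor of tissue-resident macrophages, was at 10.003, 10.237 and 9.314 in WT against 7.52 and 6.60 in the mutants. Gas6, the bridging ligand of the receptors Mertk and Axl, was at 10.72, 10.59 and 10.20 against 8.89 and 8.61. Mertk, which takes up dying cells, went the other way, by 0.48 and 1.42. Cd163, the haemoglobin scavenger, was at 8.90, 8.12 and 6.64 against 6.32 and 6.04, where WT array 3 lay close to the mutants. Lyve1 had the same pattern, with 10.56, 10.30 and 8.20 against 8.05 and 7.64. Of 22 identity genes 9 were apart and lower, 3 by 2-fold, and 2 higher, beside 8.5% and 8.92% of all genes. Their median was -0.51 in array 1 and -0.07 in array 2. Their mean level was 11.228 to 11.280 in WT, 10.455 in array 1 and 10.778 in array 2. Fcrls, Folr2, Hpgd, Cx3cr1, Mertk and Cd163 are also members of this list, and the first 3 were the ones lower by 2-fold. The list was not uniform: some members were lower and some were close to the controls. Mrc1, the mannose receptor, differed by -1.07 and -0.48, Pf4 by -1.69 and -1.14 and P2ry12, a purine receptor, by -1.01 and -0.56. C1qa, C1qb and Apoe, bright in every array, differed by at most 0.29. Fn1, fibronectin, was at 9.95, 10.23 and 9.72 against 8.75 and 8.26, and Igf1 at 9.84, 10.06 and 10.10 against 9.30 and 9.22. Retnla, a product of alternative activation, was at 9.86, 10.01 and 9.02 against 7.59 and 6.64. Tgm2, of the same list, went the other way, at 8.59, 8.40 and 9.45 against 10.88 and 10.77. Of 16 alternative activation genes 4 were apart and higher and 4 apart and lower, beside 8.92% and 8.5% of all genes. Their median was 0.01. Fibroblast markers were lower in the same arrays, among them Dcn, at 11.26, 11.39 and 10.63 against 9.26 and 9.68, and their part in the values of Fn1, Igf1 and Gas6 was not tested.

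Of 17 measured leukotriene and prostaglandin genes 4 were apart and higher and 3 apart and lower, against 8.92% and 8.5% of all genes, with a median of 0.04. Alox5, the 5-lipoxygenase that starts leukotriene synthesis, was at 9.23, 9.28 and 8.69 in WT against 6.11 and 6.00 in the mutants. Ltc4s, which makes leukotriene C4, was at 8.09, 7.78 and 7.49 against 5.89 and 6.09, and Hpgd, which inactivates prostaglandins, at 11.34, 11.57 and 11.33 against 9.62 and 10.20. All 3 were at least 2-fold apart. Ptgs2, the inducible cyclooxygenase, differed by 1.44 and 1.35 in the other direction and was apart by 0.52, and Alox5ap, the partner of 5-lipoxygenase, by 0.42 and 0.22.

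Il10ra was the only gene of the IL-10 signalling list that was apart and lower. Of 16 measured 6 were apart and higher (8.92% of all genes were), with a median of 0.17. Il10rb differed by -0.37 and 0.22, Il10 by 0.06 and 0.28, Jak1 by -0.10 and 0.26, and Stat3 by 0.12 and 0.13. Il10rb, Il10 and Jak1 overlapped between groups. Socs3, a feedback inhibitor that IL-10 and other signals induce, differed by 0.90 and 0.52. Nfil3, a transcription factor induced by IL-10 and by other signals, differed by 1.66 and 1.32. Ddit4 was at 7.29, 7.82 and 7.80 in WT against 8.83 and 9.33 in the mutants, and Il1rn, the IL-1 receptor antagonist, at 9.72, 9.49 and 10.30 against 10.91 and 10.77. Among transcription factors 10 of 25 were apart and higher and 0 lower, beside 8.92% and 8.5% of all genes. Lmo4, a LIM-domain adaptor, was at 8.44, 8.46 and 8.41 against 9.57 and 9.59, with an adjusted p of 0.062, and Nr1h3, the oxysterol receptor LXR-alpha, was at 8.07, 7.75 and 8.39 against 9.48 and 10.06. Of 23 pattern recognition genes 9 were apart and higher (8.92% of all genes were). They were led by Nod1, a sensor of bacterial peptidoglycan, at 7.92, 7.79 and 8.07 against 9.23 and 9.41. Of 21 cell cycle genes 1 was apart and lower and 0 higher, near or below the 8.5% and 8.92% of all genes.

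**Figure D4:**
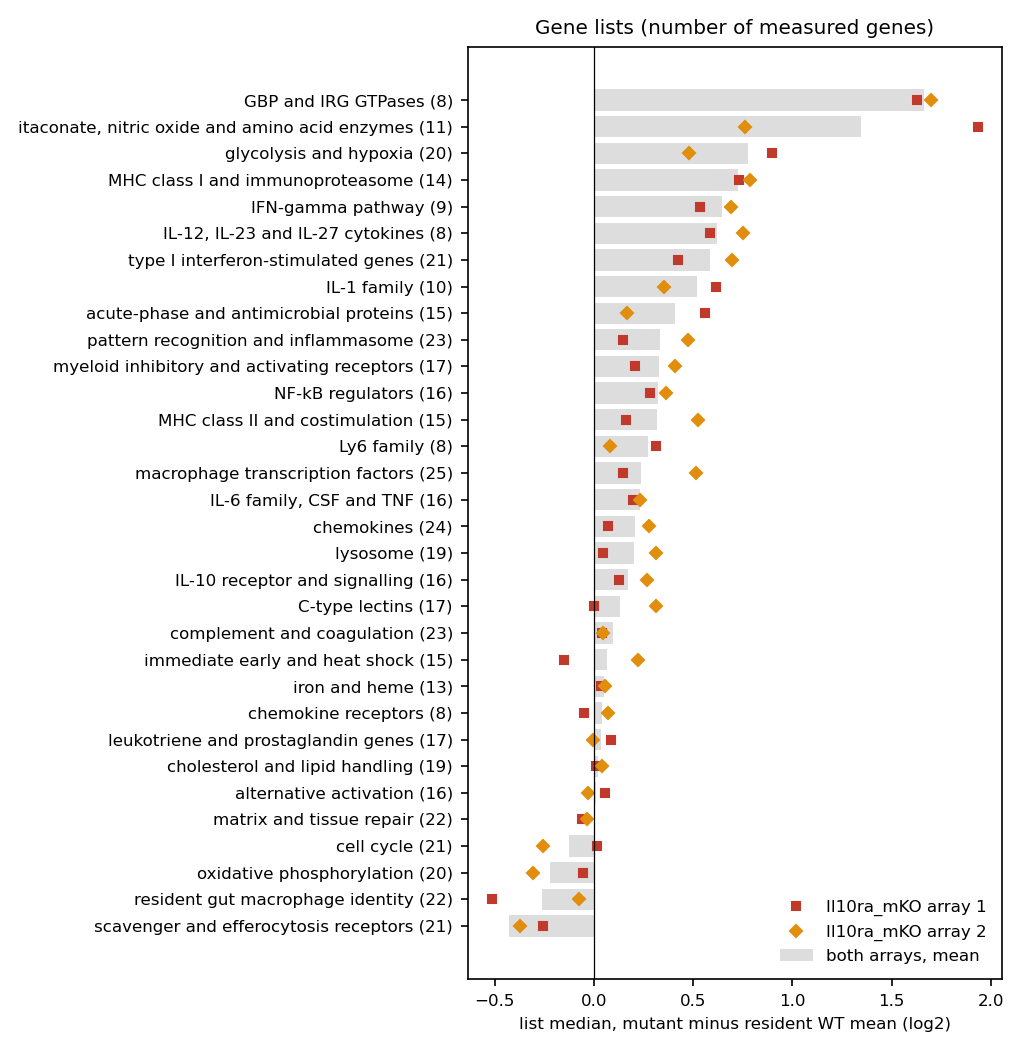
Median difference from the resident WT mean (log2) over the measured genes of each of the 32 gene lists; grey bars are the mean of both mutant arrays, squares mutant array 1 and diamonds mutant array 2, and the number of measured genes follows each name. The GTPase list is highest by the grey bars (1.66) and the scavenger list lowest (-0.43), and the itaconate and nitric oxide list differs most between the mutant arrays (1.93 and 0.76).

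The mutant arrays also differed from each other, in epithelial and other genes. At least 2-fold differences between them numbered 368 genes higher in array 1 and 61 higher in array 2. Among genes whose WT arrays lay close together, the largest excess of array 1 was in Car1, a carbonic anhydrase of colonocytes, at 13.31, 13.13 and 12.98 in WT and 13.07 and 9.19 in the mutants. Fabp2, the intestinal fatty acid binding protein, was at 9.51, 9.62 and 9.48 against 8.12 and 5.38. Sprr1a and Isx differed in direction from the controls between the mutant arrays, with 9.28 and 6.53, and 7.52 and 4.85, beside WT values of 6.62 to 6.81 and 5.91 to 6.26. Mfsd2a, a lipid transporter, was at 5.43, 5.58 and 5.55 against 9.15 and 6.10. In array 2 the excess was largest for Satb1, a chromatin organiser of lymphocytes, at 5.62, 5.38 and 5.62 against 5.62 and 7.44, and for Fkbp5, at 7.14, 6.85 and 7.00 against 7.13 and 8.85. Ms4a1, the B cell antigen CD20, was at 6.19, 5.79 and 5.70 against 6.73 and 8.16. Of the 75 higher genes with a 2-fold gap 13 were at least 2-fold higher in array 1 than in array 2, and of the 73 lower 9.

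Both CX3CR1hi arrays, 1 of CX3CR1gfp/+ and 1 of IL10-/- CX3CR1gfp/+ mice, share no array with the resident comparison. With 1 array a group they allow no test, and per the labels' extraction protocol their kit may differ from that of the resident arrays. In the IL-10 deficient array 138 genes were at least 2-fold higher (0.692%) and 244 lower (1.22%) than in its control. All 15 higher genes with the widest resident gaps were at least 2-fold higher there, among them Acod1 at 9.61 against 6.36, Nos2 at 7.66 against 4.90 and Ly6i at 9.52 against 6.10. Of the 15 lower genes 13 were at least 2-fold lower. The other two were Alox5, at 8.71 against 9.18, and Il10ra, which the IL10-/- genotype leaves in place, at 11.61 against 11.32. Of the 75 higher genes with resident arrays 2-fold apart 57 were at least 2-fold higher in this pair, 76% of the 75 and 41.3% of the 138. Of the 73 lower genes 48 were at least 2-fold lower, 65.8% of the 73 and 19.7% of the 244. Fcrls stood at 9.78 against 10.93, and whether its difference is smaller here than in the resident arrays was not tested.

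The label numbers of the arrays fall into runs of neighbours, 54 to 56 and 67 to 68, each with 1 mutant array, which the labels do not call a batch. Mutant array 1 minus the mean of WT arrays 1 and 2, and mutant array 2 minus WT array 3, share no array. Across the 19938 genes these differences correlated at a Pearson r of 0.625, and across the 10085 brighter genes (over 5.86 in 2 or more resident arrays) at 0.652. Genes are not independent replicates, and low values in these arrays share ties. In the run of array 1, 250 genes were 2-fold or more higher and 197 lower, and in the run of array 2, 170 and 483. Both runs shared 97 higher genes (0.487% of all, 38.8% and 57.1% of the runs' genes) and 123 lower genes (0.617%, 62.4% and 25.5%). A further 6 genes differed by 2-fold or more in opposite directions, all higher in the run of array 1. Acod1 differed by 4.92 and 4.51 in the runs, Fcrls by -4.39 and -4.15 and Il10ra by -2.61 and -4.08.

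**Figure D5:**
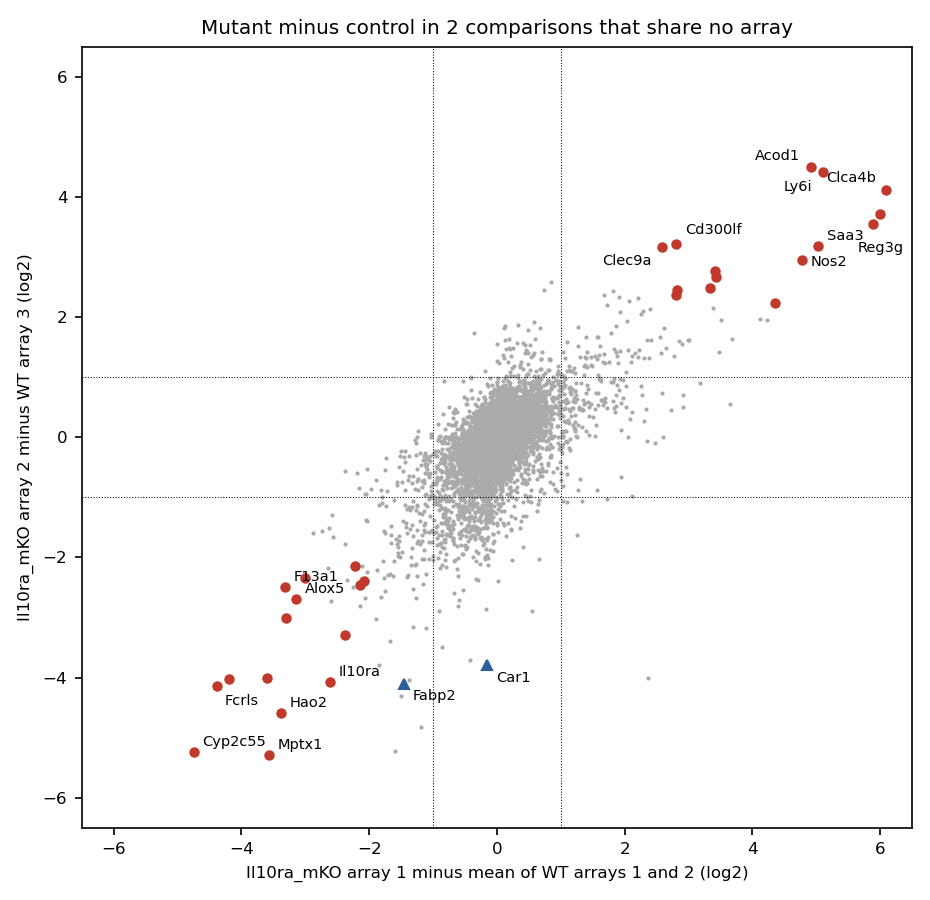
Mutant minus control for each of the 19938 genes in 2 comparisons that share no array: array 1 against the mean of WT arrays 1 and 2 (x axis, log2) and array 2 against WT array 3 (y axis, log2); red points are the 15 higher and 15 lower genes with the widest gaps, triangles Car1 and Fabp2, dotted lines mark 2-fold. The red points lie in the upper right and lower left corners, and Car1 lies near 0 on the x axis and near -3.79 on the y axis.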

How the data were processed

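RNA of sorted macrophages was read on 7 Affymetrix mouse gene arrays, 5 of them used in the comparison. The deposited values are log2 expression made with RMA, and Partek is also named, per the submitters' processing notes; the sources used here do not give versions, a genome build or whether normalization was joint. RMA compresses low values, so log2 differences of dim genes are understated, and many low values are tied between resident arrays. Per the labels' protocols the extraction kit differs between samples 1 and 2 and the others.

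Of 35399 rows 21789 had 1 gene symbol in the platform annotation, 1621 several and 11989 none; 21698 matched RefSeq genes of GRCm38.p6, with 0 symbols changed. Where a gene had more than 1 row (999 genes) the brightest by its 7-array mean stood for it, leaving 19938 genes. Groups came from the labels, and array numbers within a group only name arrays. limma 3.58.1 in R 4.3.3 (lmFit, eBayes with a variance trend) was fitted to all 7 arrays with group and sort label, giving 3 residual degrees of freedom and a prior of 0.831; the two-sided p-values were adjusted by Benjamini-Hochberg over 19938 genes, with a threshold of 0.05. The precision is limited by the number of arrays. The fit was run on simulated data only to check that differences are recovered. Those data held no tied values, so they do not check the p-values given here.

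Members, lists and tests were chosen with earlier results of these data known. Of 579 places in 32 gene lists 529 were measured, and of 188 in 12 marker lists 168. Named genes were Il10ra, Cx3cr1, the 15 in each direction with the widest gap between groups, genes past the threshold, the 6 in each direction that differed most between the mutant arrays while the WT arrays spanned at most 0.5, and 3 members of each list by gap, 138 in all; predicted genes, clone names and small RNAs were left out of all but the lists. Other list members are named for contrast, after their values were seen. The alternatives were leaving out each resident array, the resident arrays alone, no variance trend, robust eBayes, a brightness filter, quantile normalization again, median centring, the mean of all rows of a gene, a block of neighbouring label numbers, all 4 control arrays and, added after seeing the data, genes without tied values. The alternative with all 4 control arrays pooled the WT CX3CR1hi array with the 3 resident WT arrays and left out the sort label. The promoters were searched in RefSeq windows of 300 bases.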

Additional observations from a re-analysis of the deposited data

How the results depend on the processing

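The counts of genes past the adjusted threshold depended on the processing, while the counts of genes with arrays 2-fold apart did so less. Against 0 higher and 1 lower in limma, leaving out 1 resident array gave 0 to 194 higher and 0 to 174 lower genes. The 3 fits that left out a WT array gave 0 in both directions, and those that left out mutant array 1 or 2 gave 92 or 194 higher and 174 or 73 lower; there the lone mutant array is assumed to vary like the WT arrays. The higher count was 1 without the variance trend, 6 with the brightness filter, 58 with quantile normalization again, 81 with median centring, 34 with all 4 control arrays and 108 without tied values. The lower count was 3, 7, 56, 65, 37 and 101 in that order, and 0 with runs of label numbers as a block. All results with all 4 control arrays mix sorts and possibly extraction kits, as the fourth is the WT array of CX3CR1hi cells. The estimated prior degrees of freedom were 0.831 in the main fit and 2.68, 3.39, 2.99 and 3.34 with quantile normalization, centring, all 4 controls and without tied values; whether this accounts for the counts was not tested.

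The count of 75 higher genes with arrays 2-fold apart was 77 to 141 when 1 resident array was left out, with 127 without WT array 3 and 130 and 141 without mutant arrays 1 and 2, and 64 to 89 under the other alternatives. The count of 73 lower genes was 75 to 387, with 387 without mutant array 1, and 67 to 92 otherwise. Leaving out an array makes the rule easier to meet. Median centring shifted the median difference of all genes by 0.05. Of 138 named genes 2 reversed: Sprr1a ranged from -0.22 (without mutant array 1) to 2.53 and Isx from -1.24 (without mutant array 1) to 1.43, and Isx was -0.45 with all 4 control arrays. Named genes past the threshold numbered 72 of 134 without tied values and 59 of 138 with median centring. The named genes include those chosen by their gap in the same arrays, so these counts are no separate test. The labels give no replicate numbers to pair arrays by. Setting each mutant array against the controls of its own run of label numbers gave 89 higher and 92 lower genes 2-fold apart, and the block of runs is given above. Low signal limits the dim genes: 15 of the 75 higher genes lay below the median of all values in WT, so their differences are understated.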

Other observations

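Rows outside the gene comparison held further values. Of 11989 rows with no gene symbol 9 were higher and 3 lower with resident arrays 2-fold apart, and of 1621 rows with several symbols 8 were higher and 3 lower.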
